A study of Mus musculus with 28 samples.

Results

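The microRNAs (miRNAs) miR-221 and miR-222 were followed through their 4 mature strands, mmu-miR-221-3p, mmu-miR-221-5p, mmu-miR-222-3p and mmu-miR-222-5p (written here without the species prefix), which are 4 of the 1485 mature mouse miRNA names counted in the series. They were chosen by name, as the products of a pair of neighbouring hairpins known for roles in cell growth, and each name stood under 1 hairpin. The samples were 28 small RNA libraries from the left ventricle of outbred Hsd:ICR(CD-1) mice. For myocardial infarction (MI) the left anterior descending artery was tied off on postnatal day 7 (P7) or 1 (P1), and sham-operated mice of the same day were the controls. At 3 days after the operation the groups were MI P7 and sham P7 at an age of 10 days, and MI P1 and sham P1 at an age of 4 days, with 4 libraries each. At 21 days they were MI P7 and sham P7 at an age of 28 days, and MI P1 and sham P1 at an age of 22 days, with 3 libraries each. All tissue was taken from the remote zone, away from the infarct, so the injured muscle itself was not sampled, and the labels give no measure of infarct size.

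Mouse hearts can replace lost muscle when injured at birth, and this ability fades within the first week of life. A miRNA pairs with messenger RNAs mainly through its seed, the short stretch next to its 5′ end, and lowers their stability and translation. The 3p strands of miR-221 and miR-222 carry the same seed and are known to repress the cyclin-dependent kinase inhibitors p27 (gene Cdkn1b) and p57 (gene Cdkn1c) in human cancer cells, and the receptor gene KIT in human blood and endothelial cells. In rat arteries they are known to promote smooth muscle proliferation after injury. In the adult mouse heart, miR-222 is known to be raised by exercise and to be needed for exercise-induced cardiac growth.

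The mature sequences are shown because the shared seed is what ties both hairpins to the same targets. They are from RefSeq (GRCm38.p6) and run 5′ to 3′, with the seed, bases 2 to 8, in capitals, and all 3 lie on the minus strand of chromosome X.
miR-221-3p: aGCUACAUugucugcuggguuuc
miR-222-3p: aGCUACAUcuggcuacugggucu
miR-221-5p: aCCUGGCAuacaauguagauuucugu
The positions are chrX:19146307-19146329 for miR-221-3p, chrX:19146901-19146923 for miR-222-3p and chrX:19146344-19146369 for miR-221-5p. The 3p strands are both 23 bases long, share their first 8 bases and carry the same base at 11 of the 23 positions. The seed of miR-221-5p is a different one. Among the other mature miRNAs of the RefSeq table, miR-1928 (chr1:74206562-74206578, minus strand) has the 3p seed too, and it is not analysed here.
miR-1928: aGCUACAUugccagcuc

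The hairpins are shown with the mature strands that the table places in capitals, to make plain from which arm each strand comes.
Mir221: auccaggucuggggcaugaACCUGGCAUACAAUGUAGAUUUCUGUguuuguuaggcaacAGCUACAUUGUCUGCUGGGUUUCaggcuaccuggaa
Mir222: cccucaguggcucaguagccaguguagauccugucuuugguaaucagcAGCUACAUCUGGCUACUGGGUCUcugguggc
Mir221 spans chrX:19146294-19146388 and Mir222 spans chrX:19146893-19146971, both on the minus strand, with 504 bases between them. In the GENCODE annotation of the same build no other gene overlaps the locus. The nearest annotated genes are the transcript Gm14636, 10009 bases away, and the pseudogene Gm5383, 203065 bases away.

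The 7 letters that pair with the shared seed, ATGTAGC, were searched on the transcript strand of the longest annotated 3′ UTR of each protein-coding gene. They occurred in 1988 of 21024 genes (9.46%). Examples among genes named as targets in earlier work on these miRNAs are shown with the match in capitals, and they are no tally of such genes.
Cdkn1b: cctctaaaagcattggATGTAGCattgcg
Cdkn1c: ctgggacctttcgttcATGTAGCaggaac
Kit: taatgatgggagatatATGTAGCaagact
Kit: ttttgtaaatattgaaATGTAGCaataat
These windows lie at chr6:134924415-134924443 (plus strand) for Cdkn1b, chr7:143458920-143458948 (minus strand) for Cdkn1c, and chr5:75654976-75655004 and chr5:75656507-75656535 (plus strand) for Kit. Ets1, a transcription factor gene, held 2 matches, and Timp3, which encodes an inhibitor of matrix metalloproteinases, held 1. A match describes the sequence and is not evidence of regulation in these hearts.

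Deposited counts per library came to 1.29 to 13.0 M (M, 1e6) at 3 days and 18.2 to 26.9 M at 21 days. The 3-day libraries were made with the QIAseq kit and the 21-day libraries with the TruSeq kit, so levels are not compared between follow-ups. The first principal component at 3 days, with 72.1% of the variance, set the libraries sham P1 replicate 3 and 4, whose titles carry the code 1103, beside the P7 groups, and replicate 1 and 2, with the code 1078, beside MI P1. This component also parted the 3-day libraries by depth. Each MI P1 library held at least 5.61 M counts, and the code 1078 libraries held 6.25 and 9.26 M. The code 1103 libraries held 1.56 and 2.65 M, and no P7 library exceeded 3.42 M. Code and depth can therefore not be told apart on this component, and MI P1 differed from the P7 groups in depth too. Every 21-day group carried 1 title code of its own, so code and group cannot be told apart there. At 3 days no code was shared between groups either. Every sham P7 library carried the code 1075, MI P7 carried 1077, 1088 and 1090, and MI P1 carried 1059 and 1086. A difference between 3-day groups is thus also one between codes, and the labels do not say what the code stands for. They also do not say that each library is a separate mouse, so the p-values measure only the spread between these samples. Of the tissue markers, striated muscle miRNAs, which include miR-1a-3p and miR-133a-3p, summed to 88820 to 324312 counts per M (CPM) at 3 days and 55969.8 to 157386 CPM at 21 days. The liver marker miR-122-5p reached 1641 CPM in 1 of the 3-day libraries (MI P1 replicate 1) and at most 0.216 CPM at 21 days.

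The 3p strands made up most reads of both hairpins. miR-221-3p took a mean of 0.0494% of counts at 3 days, rank 99 of the 1313 miRNAs with reads, and 0.0233% at 21 days, rank 105 of 1367. miR-222-3p took 0.00924% at 3 days (rank 189) and 0.0125% at 21 days (rank 137). Both 3p strands were read in all 28 libraries, miR-222-5p in 27 and miR-221-5p in 24. In tissue extracts such as these, fewer cells of a type and less of a miRNA per cell cannot be told apart.

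**Figure D1:**
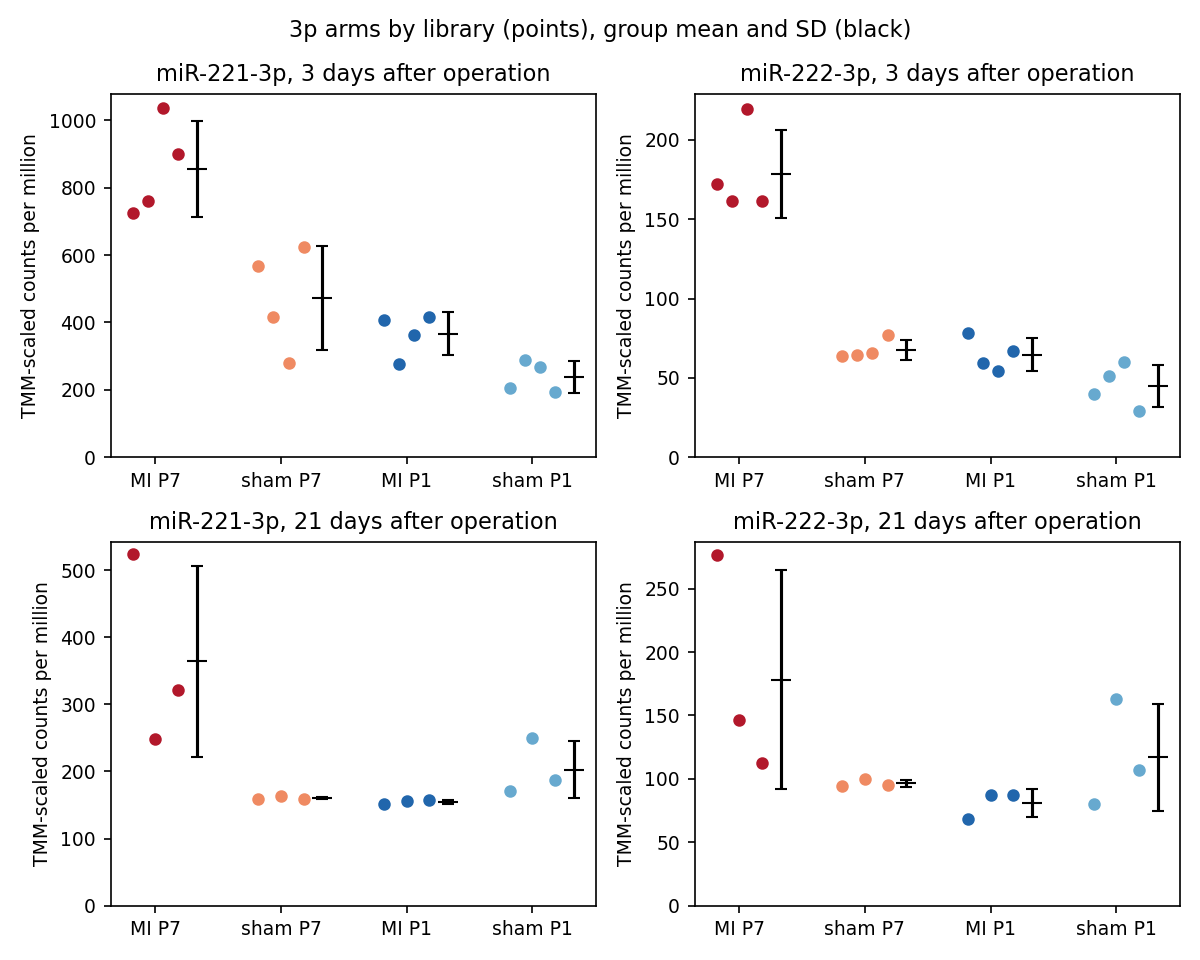
Levels of miR-221-3p (left) and miR-222-3p (right) in TMM-scaled CPM, 1 point per library, at 3 days (top) and 21 days (bottom). Black bars give the group mean and SD; both strands were highest in MI P7 at both follow-ups, and the vertical scales differ between panels.

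At 3 days after MI at P7, miR-222-3p was higher than in sham hearts of the same age, and the groups were far apart. miR-222-3p was at 172, 162, 219.7 and 161 CPM in MI P7 hearts, against 63.6, 64.2, 65.8 and 76.7 CPM in sham P7 hearts. Every MI P7 library lay above every sham P7 library. The means were 179 ± 27.8 CPM in MI P7 and 67.6 ± 6.16 CPM in sham P7 (SD, n = 4 each), a log2 change of 1.40 ± 0.30 (SE, adjusted p = 0.00912). miR-222-3p was the 1 called member of the 3 tested, where 5.61% of all 446 tested miRNAs passed in either direction and 5.16% passed as higher. The call held in 25 of 27 alternatives, including all 16 in which 1 library was left out (adjusted p 0.00875 to 0.0423). It was lost with no filter on low counts (adjusted p = 0.26) and when libraries of 1 title code were treated as correlated, in a block fit of limma-voom (log2 fold change 1.35, adjusted p = 0.996).

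The partner strand miR-221-3p had 725, 761, 1038 and 899.6 CPM in MI P7 hearts, against 567, 415, 281 and 625.4 CPM in sham P7 hearts. These ranges did not overlap either, but the sham P7 libraries were spread widely. The means were 856 ± 143 CPM in MI P7 and 472 ± 155 CPM in sham P7 (SD, n = 4 each), a log2 change of 0.86 ± 0.30 (SE) that did not pass the test (adjusted p = 0.119). It passed in 3 alternatives: total count scaling (1.34, adjusted p = 0.00619) and the fits without the sham P1 libraries of title code 1103 (0.83, adjusted p = 0.0324) or of code 1078 (0.82, adjusted p = 0.0401). miR-222-5p, the passenger strand, rested on 1 to 8 reads per MI P7 library and 0 to 7 per sham P7 library, with a log2 change of 0.46 ± 0.91 (SE, adjusted p = 0.864). The fibroblast-associated miRNAs miR-199a-3p, miR-199a-5p and miR-214-3p summed to 4427 to 6147 CPM in MI P7, against 2117 to 3656 CPM in sham P7, with 0 of 3 passing. Striated muscle miRNAs summed to 153150 to 169681 CPM in MI P7, against 210789 to 324312 CPM in sham P7, with 0 of 5 passing. The leukocyte miRNAs had log2 fold changes of 2.31 (miR-223-3p), 1.97 (miR-142a-3p), 1.94 (miR-142a-5p) and -0.53 (miR-150-5p), with 0 of 4 passing. Their sums overlapped, at 2619 to 3525 CPM in MI P7 and 2015 to 4257 CPM in sham P7. The part of any of these lists in the miR-222-3p result was not tested.

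At 21 days after MI at P7, both strands of miR-221 were higher than in sham hearts. miR-221-3p was at 523, 248 and 321 CPM in MI P7 hearts, against 159, 163 and 159 CPM in sham P7 hearts. The lowest MI P7 library stood clear of the sham libraries, which lay close together, while the MI P7 libraries differed widely among themselves. The means were 364 ± 143 CPM in MI P7 and 161 ± 2.00 CPM in sham P7 (SD, n = 3 each), a log2 change of 1.18 ± 0.24 (SE, adjusted p = 0.00810). miR-221-5p, the opposite strand of the same hairpin, had 24.3, 11.96 and 24.3 CPM in MI P7 hearts, against 10.5, 8.82 and 6.65 CPM in sham P7 hearts. Those ranges did not overlap, and the log2 fold change was 1.22 ± 0.30 (SE, adjusted p = 0.0132).

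miR-222-3p had 276, 146 and 113 CPM in MI P7 hearts at 21 days, against 94.7, 99.6 and 94.8 CPM in sham P7 hearts. All 3 MI P7 libraries were above the sham P7 libraries, yet the difference just missed the threshold (log2 fold change 0.89 ± 0.31, SE, adjusted p = 0.0543). MI P7 replicate 1 was the highest library for both 3p strands. Without it the miR-222-3p difference was 0.42 (adjusted p = 0.291), and without MI P7 replicate 3, the lowest for this strand, it was 1.21 (adjusted p = 0.0136). It passed in 7 of 22 alternatives, DESeq2 among them (adjusted p = 0.0272). miR-222-5p had 2.91, 1.44 and 1.71 CPM in MI P7 hearts, against 0.861, 1.53 and 1.70 CPM in sham P7 hearts. Its ranges overlapped, and the log2 change of 0.54 ± 0.36 (SE) did not pass (adjusted p = 0.291).

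Of the 4 strands, 2 were thus called at 21 days after MI at P7, both higher, where 22.1% of all 598 tested miRNAs passed in either direction and 13.2% passed as higher. The miR-221-3p call held in all 22 alternatives, with log2 fold changes of 0.81 (without MI P7 replicate 1) to 1.57 (total count scaling). The miR-221-5p call held in 21 of 22, and was lost when only MI P7 and sham P7 were fitted (adjusted p = 0.0612). The libraries came from sequencing lanes 3 and 5, per the file names. Within lane 3 miR-221-3p was higher by 1.35 on the log2 scale in 2 MI P7 than in 2 sham P7 libraries, and within lane 5 by 0.63 in 1 library against 1. Within the lanes miR-221-5p differed by 1.65 and 0.19, and miR-222-3p by 0.86 and 0.62. Lane 5 held no sham P1 library, so the effect of MI at P1 has a value within lane 3 alone, -0.40 for miR-221-3p, from 1 MI P1 library against 3 sham P1 libraries. The fit with lane as a term gave -0.22 for this effect.

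**Figure D2:**
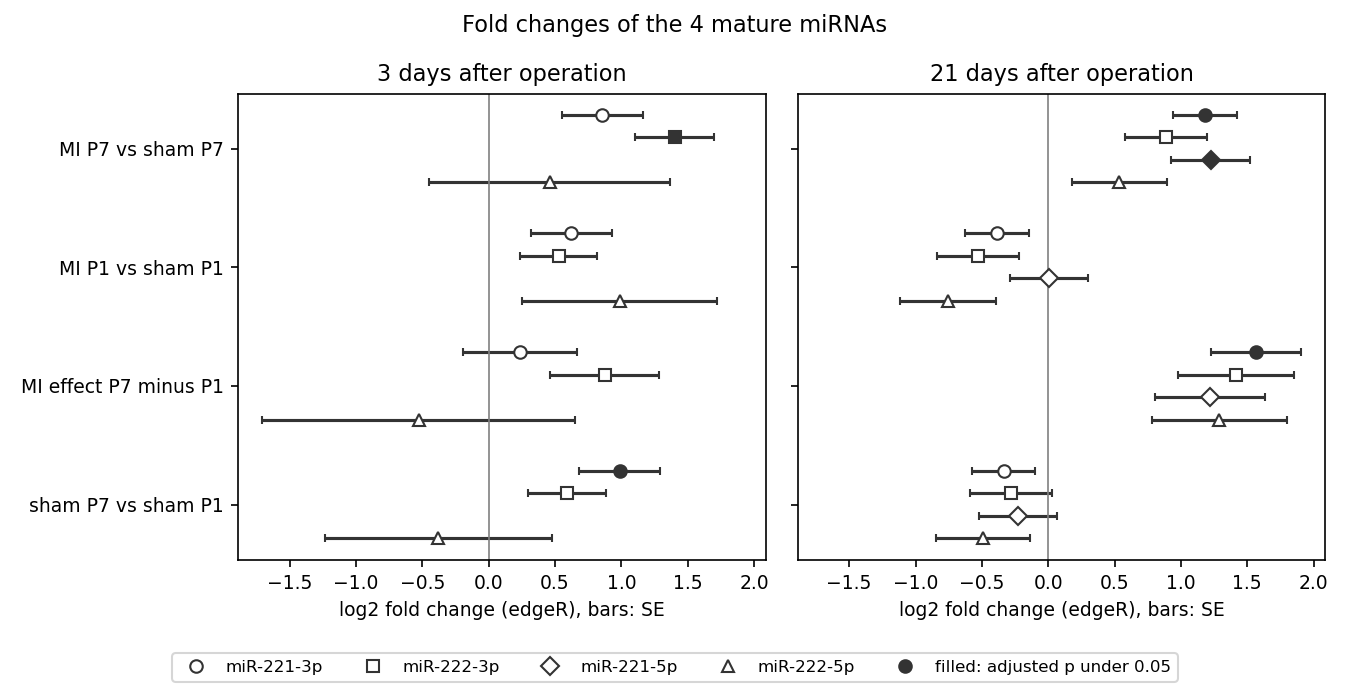
Log2 fold change with SE of each strand that was tested, for each comparison (rows), at 3 days (left) and 21 days (right). Filled symbols passed at an adjusted p under 0.05: miR-222-3p for MI at P7 and miR-221-3p for sham age at 3 days, and miR-221-3p (MI at P7 and difference of effects) and miR-221-5p (MI at P7) at 21 days.

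Other miRNAs moved in the same 21-day hearts. In this comparison 22.1% of all 598 tested miRNAs passed in either direction, 13.2% as higher and 8.86% as lower. All 3 fibroblast-associated miRNAs were called higher, and they summed to 10615 to 22958 CPM in MI P7, against 5098 to 6120.0 CPM in sham P7. Of the 5 striated muscle miRNAs, only miR-133a-3p was called, lower (log2 fold change -1.01), and the others stood at -0.43 (miR-208a-3p) to 0.10 (miR-208b-3p). The list summed to 55969.8 to 92571 CPM in MI P7, against 133851 to 157386 CPM in sham P7. The endothelial miR-126a strands summed to 31860 to 50266 CPM in MI P7, against 51937 to 58307 CPM in sham P7, with miR-126a-3p called lower (-0.78). Of the 4 leukocyte miRNAs, miR-142a-3p was called higher (0.58) and miR-150-5p lower (-1.26), calls that held in 12 of 22 alternatives for miR-142a-3p and 21 of 22 for miR-150-5p. Of the 2 smooth muscle and the 2 erythroid miRNAs, 0 passed. The leukocyte sums (2653 to 3578 CPM in MI P7, against 3062 to 3378 CPM in sham P7) and the smooth muscle sums (46018 to 112213 CPM in MI P7, against 66631 to 69687 CPM in sham P7) overlapped. The fibroblast-associated, striated muscle and endothelial sums did not overlap between MI P7 and sham P7, and their part in the miR-221 difference was not tested.

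MI at P1 was followed by no called member at either follow-up. At 3 days miR-221-3p had 408, 278, 363 and 417 CPM in MI P1 hearts, against 204, 288, 267 and 194 CPM in sham P1 hearts. The lowest MI P1 library lay below the highest sham P1 library, and the log2 fold change was 0.62 ± 0.30 (SE, adjusted p = 0.149). miR-222-3p had 78.0, 59.3, 54.3 and 67.1 CPM in MI P1 hearts, against 39.9, 51.1, 59.8 and 29.0 CPM in sham P1 hearts. Its ranges overlapped as well, with a log2 change of 0.53 ± 0.29 (SE, adjusted p = 0.207), and miR-222-5p had 0.99 ± 0.74 (SE, adjusted p = 0.371). In edgeR 0 of 3 strands passed, 0 had an unadjusted p under 0.05, limma-voom called 0, and 18.4% of all tested miRNAs passed in either direction and 17% as lower. DESeq2 called the 2 3p strands, miR-221-3p at 0.81 (adjusted p = 0.0179) and miR-222-3p at 0.73 (adjusted p = 0.0305). Of the tissue markers, the leukocyte miR-142a-3p was called higher (2.71) and miR-150-5p lower (-1.89) in MI P1. Of the striated muscle miRNAs only miR-133a-3p was called, lower (-1.48), and the others stood at -0.09 (miR-208a-3p) to 0.67 (miR-208b-3p). These calls held in 16 to 18 of 27 alternatives and were lost without the code 1103 libraries (adjusted p 0.274 to 0.716).

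The split of the 3-day sham P1 libraries touched the 3p strands little. miR-221-3p averaged 246 CPM in the libraries of code 1078 and 230.3 CPM in those of code 1103, and miR-222-3p averaged 45.5 and 44.4 CPM. The ranges of the codes overlapped for both strands. miR-222-5p did differ, with 6.99 and 5.63 CPM under code 1078 and 1.93 and 0.538 CPM under code 1103, where each library had 1 or 2 reads. Without the code 1078 libraries miR-222-5p passed for MI at P1 (log2 fold change 2.69, adjusted p = 0.0230).

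At 21 days miR-221-3p had 152, 157 and 157 CPM in MI P1 hearts, against 170.2, 250.1 and 188 CPM in sham P1 hearts. Every MI P1 library was below every sham P1 library, but the log2 change of -0.39 ± 0.24 (SE) did not pass (adjusted p = 0.729). Lanes were unbalanced here, with 2 MI P1 libraries but no sham P1 library in lane 5. miR-222-3p had 68.5, 87.1 and 87.5 CPM in MI P1 hearts, against 80.6, 163 and 107 CPM in sham P1 hearts, with a log2 change of -0.53 ± 0.31 (SE, adjusted p = 0.726). The ranges of miR-222-3p overlapped. The 5p strands had 0.01 ± 0.29 (miR-221-5p) and -0.75 ± 0.36 (miR-222-5p), with adjusted p-values of 0.997 and 0.663. In edgeR 0 of 4 strands passed, 0 had an unadjusted p under 0.05, and 0 were called by DESeq2 or limma-voom, where 0.502% of all tested miRNAs passed.

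The difference between the effects of MI at P7 and at P1 was tested directly. At 21 days it was 1.57 ± 0.34 on the log2 scale for miR-221-3p (SE, adjusted p = 0.0158), so in this fit the effect of MI on the strand differed between the operation days. This was 1 called member of 4, where 9.87% of all tested miRNAs passed in either direction and 7.86% in the direction of a higher effect at P7. miR-221-5p at 1.22 ± 0.42 (adjusted p = 0.0786), miR-222-3p at 1.42 ± 0.44 (adjusted p = 0.0580) and miR-222-5p at 1.29 ± 0.51 (adjusted p = 0.129) did not pass, although all 4 strands had an unadjusted p under 0.05. The miR-221-3p call held in 18 of 21 alternatives. It was lost with sequencing lane as a term (1.38, adjusted p = 0.0786), without sham P1 replicate 2 (1.43, adjusted p = 0.0517) and without MI P1 replicate 1 (1.60, adjusted p = 0.0502). With the lane term 0 of all 598 miRNAs passed.

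At 3 days the difference of effects was 0.23 ± 0.43 for miR-221-3p (SE, adjusted p = 0.808), 0.87 ± 0.41 for miR-222-3p (adjusted p = 0.296) and -0.53 ± 1.18 for miR-222-5p (adjusted p = 0.856). No strand passed in edgeR, DESeq2 or limma-voom, 1 had an unadjusted p under 0.05 (miR-222-3p), and 0% of all tested miRNAs passed. The miR-222-3p call for MI at P7 at 3 days is therefore not shown to differ from the effect of MI at P1.

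Among sham hearts at 3 days, miR-221-3p was higher in those operated on P7, aged 10 days, than in those operated on P1, aged 4 days. It had 567, 415, 281 and 625.4 CPM in sham P7 hearts, against 204, 288, 267 and 194 CPM in sham P1 hearts. The lowest sham P7 library lay just below the highest sham P1 library. The log2 fold change was 0.99 ± 0.31 (SE, adjusted p = 0.0373), against 0.59 ± 0.29 for miR-222-3p (adjusted p = 0.147) and -0.38 ± 0.85 for miR-222-5p (adjusted p = 0.785). This was 1 called member of 3, where 22% of all tested miRNAs passed in either direction, 3.81% as higher and 18.2% as lower.

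The age call depended on single libraries. It held in 9 of the 16 fits that left out 1 library, with adjusted p-values of 0.0124 to 0.0813. It was lost without sham P7 replicate 1, 2 or 4, without sham P1 replicate 1, 2 or 4, and without MI P1 replicate 1. It was also lost with total count scaling (0.69, adjusted p = 0.0896), no filter (0.68, adjusted p = 0.478), the 2 sham groups alone (1.20, adjusted p = 0.291) and the title code block (0.98, adjusted p = 0.676). It held without the sham P1 libraries of code 1103 (1.05, adjusted p = 0.00988) and without those of code 1078 (1.05, adjusted p = 0.0442). The fibroblast-associated miRNAs summed to 2117 to 3656 CPM in sham P7, against 1601 to 12542 CPM in sham P1. Among the tissue markers, the smooth muscle miR-143-3p (-1.88, adjusted p = 0.0412) and the leukocyte miR-223-3p (-2.66, adjusted p = 0.0389) were called lower in sham P7, and the leukocyte miR-150-5p was called higher (1.23, adjusted p = 0.0465). Without the code 1078 libraries they stood at 0.45 for miR-143-3p (adjusted p = 0.362), 1.29 for miR-223-3p (adjusted p = 0.0313) and 0.68 for miR-150-5p (adjusted p = 0.242). Their calls held in 8 or 9 of 27 alternatives. The part of these markers in the miR-221-3p result was not tested.

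At 21 days the sham groups, aged 28 and 22 days, differed by -0.34 for miR-221-3p, -0.28 for miR-222-3p, -0.23 for miR-221-5p and -0.49 for miR-222-5p on the log2 scale. None passed in edgeR, DESeq2 or limma-voom or had an unadjusted p under 0.05, and 0% of all tested miRNAs passed.

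The order of the groups by mean level was MI P7, sham P7, MI P1 and sham P1 for both 3p strands at 3 days. For each 3p strand the step between MI P7 and sham P7 was the 1 step without overlap, whereas sham P7 overlapped MI P1 and MI P1 overlapped sham P1. At 21 days the order was MI P7, sham P1, sham P7 and MI P1 for both 3p strands. MI P7 and sham P1 overlapped there, since sham P1 replicate 2 reached 250.1 CPM of miR-221-3p and 163 CPM of miR-222-3p. For miR-221-3p the lower steps were free of overlap too, although MI P1 averaged 155 CPM against 161 CPM in sham P7. For miR-222-3p sham P1 overlapped sham P7, and MI P1 lay below sham P7 without overlap.

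**Figure D3:**
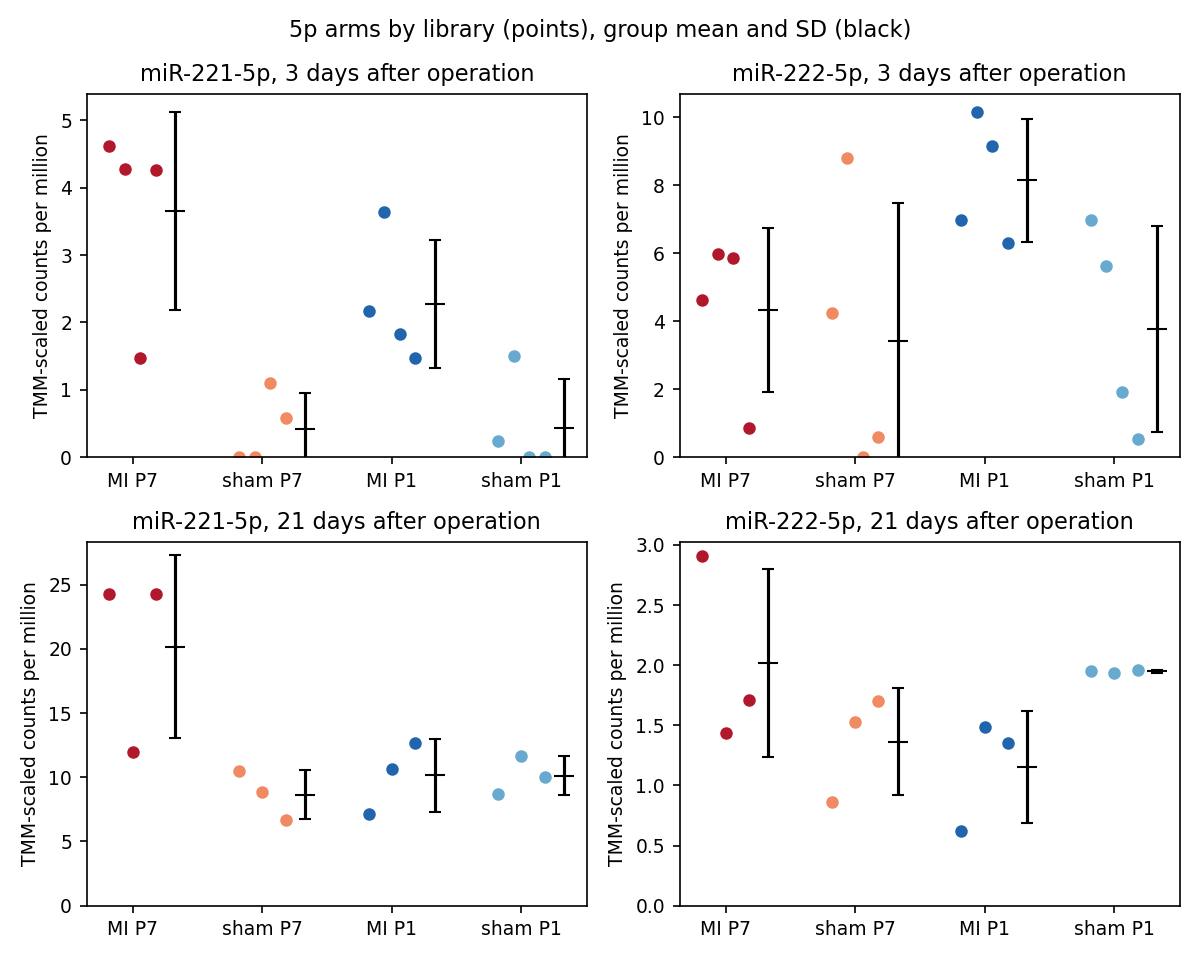
Levels of miR-221-5p (left) and miR-222-5p (right) in TMM-scaled CPM, 1 point per library, at 3 days (top) and 21 days (bottom), with the group mean and SD in black (bars stop at 0). At 3 days the points stand for 0 to 109 reads per library, and at 21 days miR-221-5p was highest in MI P7.

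The 5p strands were scarce, above all at 3 days. miR-221-5p was read 2 to 5 times per library in MI P7 and at most 1 time in sham P7, and 7 to 39 times per library in MI P1 and 0 to 8 times in sham P1. It had 0 reads in 2 sham P7 and 2 sham P1 libraries, where 3 reads would have been 1.61 to 3.78 CPM. It had too few counts to be tested at 3 days, so its values there, a mean of 3.66 ± 1.47 CPM in MI P7 and 0.421 ± 0.529 CPM in sham P7 (SD, n = 4 each), are a description. miR-222-5p at 3 days was highest in MI P1, at 6.98, 10.2, 9.15 and 6.31 CPM, against 6.99, 5.63, 1.93 and 0.538 CPM in sham P1. These ranges overlapped at their edges, through sham P1 replicate 1.

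Since a small RNA read spans the whole molecule, reads of both strands of a hairpin can be set side by side within a kit, although a kit can favour some ends over others. At 21 days miR-221-5p was read 0.0419 to 0.0809 times as often as miR-221-3p over the 12 libraries, with a median of 0.0523. This ratio had a geometric mean of 0.0554 in MI P7 and 0.0532 in sham P7, a difference of 0.06 on the log2 scale (exact two-sided permutation p = 0.9), which is under the SD of 0.39 in MI P7 and 0.33 in sham P7. Both strands of the hairpin were thus called higher in MI P7 with nearly the same read ratio between them. miR-222-5p was read 0.00946 to 0.0245 times as often as miR-222-3p at 21 days.

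**Figure D4:**
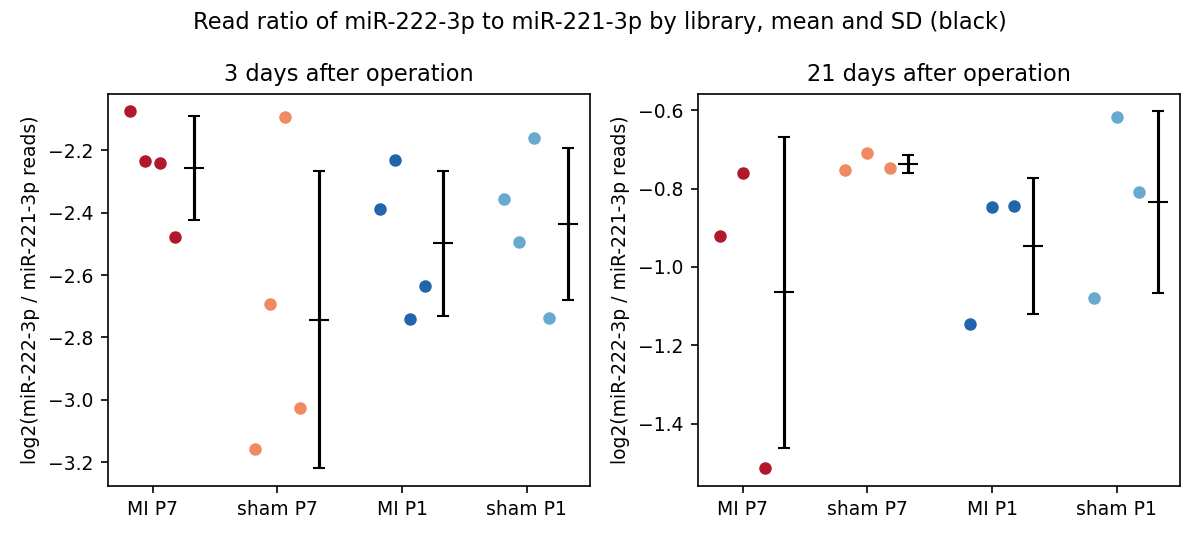
Log2 ratio of miR-222-3p to miR-221-3p reads, 1 point per library, at 3 days (left) and 21 days (right), with group mean and SD in black. At 21 days all MI P7 libraries lay below the narrow sham P7 group, replicate 2 only just, and the vertical scales differ between panels.

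The ratio of miR-222-3p to miR-221-3p reads, which does not depend on how libraries are scaled, describes how far the pair moved in step. At 3 days it was 0.112 to 0.237 over 16 libraries. It had a geometric mean of 0.209 in MI P7 and 0.149 in sham P7, a log2 difference of 0.49 (exact two-sided permutation p = 0.114, adjusted p = 0.343). The groups overlapped, because sham P7 replicate 3 had a ratio of 0.234. At 21 days the ratio was 0.350 to 0.652 over 12 libraries, with a geometric mean of 0.478 in MI P7 and 0.600 in sham P7, a log2 difference of -0.33 (exact two-sided permutation p = 0.1, adjusted p = 0.788). The ranges at 21 days only just failed to overlap, with MI P7 replicate 2 at 0.590 and sham P7 replicate 1 at 0.594. Leaving out 1 library gave differences of -0.48 to -0.10, and 0.1 is the smallest p that 3 libraries against 3 can give. For MI at P1 the difference was -0.06 at 3 days (exact p = 0.686) and -0.11 at 21 days (exact p = 0.5). Of 9 ratio tests per follow-up, 5p to 3p ratios included, none passed adjustment. At 21 days none could, whatever the data. At 3 days the smallest possible p was 0.0286, and a single test at that value would not pass adjustment over 9 tests. The tests therefore cannot decide whether the pair moved in step.

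The likeness of the 3p strands to each other and to other miRNAs across libraries was described within each follow-up. At 3 days miR-222-3p was the most similar of 347 miRNAs to miR-221-3p, and the reverse held too (Pearson r = 0.92 of log2 CPM over 16 libraries). The next most similar to miR-221-3p were miR-31-5p (0.84), miR-365-3p (0.82), miR-127-3p (0.72) and miR-214-3p (0.72). For miR-222-3p they were miR-31-5p (0.88), miR-299b-5p (0.82), miR-214-3p (0.75) and miR-540-3p (0.75). After the group means were subtracted the 3p strands correlated at 0.55. miR-222-3p then ranked 28 for miR-221-3p, behind miR-323-3p (0.78), miR-92a-1-5p (0.78), miR-152-5p (0.74), miR-425-5p (0.71) and miR-431-5p (0.71), whereas miR-221-3p ranked 2 for miR-222-3p, behind miR-206-3p (0.70).

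At 21 days, over 12 libraries and 282 miRNAs, the most similar to miR-221-3p were miR-21a-5p (0.97), miR-34b-5p (0.97), miR-214-5p (0.97), miR-214-3p (0.96) and miR-199a-5p (0.96). Its partner miR-222-3p ranked 12 with 0.90. With group means subtracted these same 5 led again, at 0.87 (miR-34b-5p) to 0.94 (miR-214-5p). Within groups miR-221-3p varied mainly in MI P7 (SD 143 CPM) and sham P1 (42.0 CPM), against 2.00 CPM in sham P7 and 2.99 CPM in MI P1. The likeness within groups is thus mostly that of the MI P7 and sham P1 libraries. The most similar to miR-222-3p were miR-34c-5p (0.95), miR-221-3p (0.90), miR-21a-5p (0.89), miR-92b-3p (0.88) and miR-214-5p (0.87), and after the group means were subtracted miR-298-5p (0.94), miR-34c-5p (0.91), miR-182-5p (0.90), miR-434-3p (0.88) and miR-214-5p (0.87). All values of a library share its depth and scaling, and these correlations describe the libraries without a test.

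**Figure D5:**
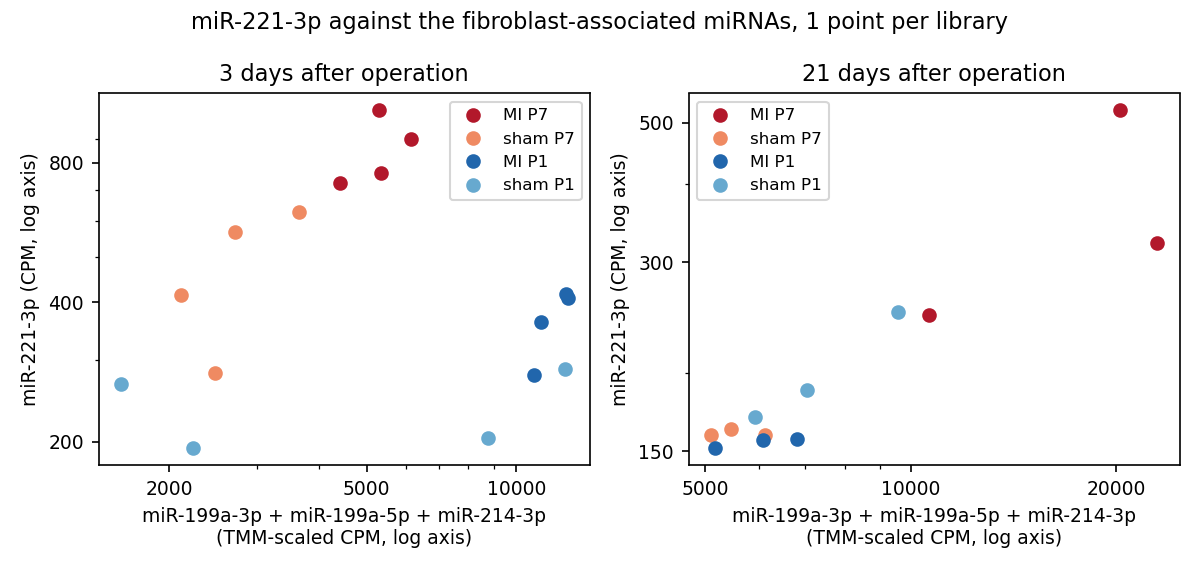
Level of miR-221-3p against the summed level of the fibroblast-associated miRNAs miR-199a-3p, miR-199a-5p and miR-214-3p, both in TMM-scaled CPM on log axes, 1 point per library. At 21 days the MI P7 libraries had the highest sums, and at 3 days MI P1 had high sums (10847 to 12686) but less miR-221-3p than MI P7. These 2 groups also differed in title code, depth and age, and the relation was not tested.

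At 3 days the sum of the fibroblast-associated miRNAs was not highest where miR-221-3p was highest, although 1 of them, miR-214-3p, was among the miRNAs most similar to both 3p strands. MI P1 had the highest mean sum, with libraries at 10847 to 12686 CPM, with miR-221-3p at 278 to 417 CPM, whereas MI P7 had sums of 4427 to 6147 CPM with miR-221-3p at 725 to 1038 CPM. In sham P1 the sum was 8769 and 12542 CPM under code 1078 and 1601 and 2233 CPM under code 1103, while miR-221-3p was 204 and 288 CPM under the first code and 267 and 194 CPM under the second. MI P1 and MI P7 also differed in title code, depth and age, so their contrast in sums cannot be told apart from these. The part of the fibroblast-associated miRNAs in the level of miR-221-3p was not tested.

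Other miRNAs of growth and of the vessel wall were read beside the pair. Of 11 miRNAs linked to cardiac growth and hypertrophy, 10 were tested at 3 days and 1 was called for MI at P7, miR-212-3p, which is known to drive hypertrophy in mice (log2 fold change 2.52 ± 0.61, SE, adjusted p = 0.0257), where 5.61% of all tested miRNAs passed. With the title code as a block this call was lost (2.69, adjusted p = 0.996), as it was with no filter and without sham P7 replicate 2 or 4 or MI P7 replicate 1. The list had a median log2 fold change of 0.82, against -0.01 over all tested miRNAs. At 21 days 3 of 11 were called higher for MI at P7: miR-199a-5p (2.10 ± 0.33), miR-214-3p (1.84 ± 0.33) and miR-21a-5p, which is abundant in cardiac fibroblasts (1.49 ± 0.32), where 13.2% of all tested miRNAs passed as higher. miR-199a-5p and miR-214-3p are also among the fibroblast-associated markers above. The median of this list was 0.10, against 0.03 over all tested miRNAs. The same 3 miRNAs passed for the difference of effects at 21 days (2.54, 2.32 and 1.79), and all 3 calls were lost with the lane term (adjusted p 0.0595 to 0.108). miR-21a-5p also lost its difference in 6 of the 12 fits that left out 1 library, and 0 of the list passed for MI at P1 at either follow-up.

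Of 10 other miRNAs reported to repress cyclin-dependent kinase inhibitors, most of them of the miR-17 and miR-25 families, 7 were tested at 3 days and 10 at 21 days. For MI at P7, 0 passed at either follow-up, with medians of -0.10 at 3 days (-0.01 over all) and -0.07 at 21 days (0.03 over all). With age in the 3-day sham hearts 4 of 7 were called lower, miR-17-5p (-2.17 ± 0.68), miR-25-3p (-1.59 ± 0.50), miR-24-3p (-1.33 ± 0.43) and miR-93-5p (-1.29 ± 0.37), where 18.2% of all tested miRNAs passed as lower. All 4 calls were lost with the title code as a block (adjusted p 0.649 to 0.769) and without the code 1078 libraries, where the values were -0.03 for miR-17-5p, -0.06 for miR-25-3p, 0.01 for miR-24-3p and -0.81 for miR-93-5p (adjusted p 0.111 to 0.986). The calls held in 20 of 27 alternatives for miR-93-5p and in 8 to 10 for the others, and leaving out single sham P7 or sham P1 libraries ended each of them. The list median was -1.33 in that comparison, against -0.53 over all tested miRNAs. miR-181a-5p was called lower for MI at P1 at 3 days (-2.87 ± 0.67), where 17% passed as lower, and this call was lost with the title code block (-2.08, adjusted p = 0.387) and without the code 1103 libraries (-0.54, adjusted p = 0.592). Of 6 vessel wall miRNAs, 0 passed for MI at P7 at 3 days and 2 were lower at 21 days, the endothelial miR-126a-3p (-0.78 ± 0.21) and the smooth muscle miR-145a-3p (-0.54 ± 0.15), where 8.86% of all tested miRNAs passed as lower. Both were lost with total count scaling (adjusted p = 0.136 for miR-126a-3p and 0.382 for miR-145a-3p), with the 2 groups alone, and without MI P7 replicate 1 or sham P7 replicate 2. miR-145a-3p was also lost without sham P7 replicate 1 or 3 or MI P1 replicate 2. The other strands of this list did not pass for MI at P7 at 21 days: miR-126a-5p (-0.39), miR-145a-5p (-0.04), miR-143-3p (0.11) and miR-143-5p (0.84). For the difference of effects at 21 days miR-145a-3p (-0.87) and the striated muscle miR-133a-3p (-1.09) passed as well, where 9.87% of all tested miRNAs passed. These calls held in 9 of 21 alternatives for miR-145a-3p and 11 of 21 for miR-133a-3p. No other vessel wall strand passed, at -0.59 (miR-126a-3p) to 0.79 (miR-143-5p), and no other striated muscle miRNA, at -0.43 (miR-208a-3p) to 0.36 (miR-499-5p). The median of the vessel wall list for MI at P7 was -0.18 at 3 days and -0.22 at 21 days.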

How the data were processed

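For each library the authors deposited raw whole-number counts, with a row per pair of hairpin and mature miRNA. Bowtie2 2.2.2, edgeR and the build GRCm38 are named, with no role, in the submitters' processing notes. The counter, the trimming and whether molecular identifiers were counted are not given in the sources; PCR copies may thus be among the reads, and the floor of 3 reads covers counting error only. Per the labels' protocols RNA was extracted with TRIzol, and kits and sequencers differed between follow-ups (QIAseq and NextSeq500 at 3 days, TruSeq and HiSeq2000 at 21 days). The 3-day and 21-day libraries were never fitted together. The highest count over hairpins was kept per mature name.

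Within each follow-up, edgeR 4.0.16 (R 4.3.3) was fitted to all 4 groups with TMM scaling, the quasi-likelihood F test (robust) after filterByExpr (minimum count 10), with Benjamini-Hochberg adjustment over the 446 (3 days) or 598 (21 days) miRNAs tested. A call is an adjusted p under 0.05, and adjusted p-values are from edgeR unless another tool is named. CPM are TMM-scaled counts per M (1e6). Read ratios were tested by exact two-sided permutation. For 5p to 3p ratios 0.5 was added to each count. Alternatives were other scalings and filters, DESeq2 1.42.0, limma-voom 3.58.1, fits of 2 groups only, each library left out, title codes left out or as a random block, lane as a term, and a replicate block. Leaving out code 1078 was chosen after seeing the data.

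The strands, the lists and the markers were chosen with earlier results of these data known. All 4 strands are named in every comparison, with the 5 miRNAs most similar to each 3p strand (mean of at least 10 CPM) and called members of the lists could be named. The fit was tested on simulated data with changes set in MI P7 and tested against sham P7. Of 2-fold changes it recovered 16.5% at 3 days and 72.2% at 21 days, and of 4-fold changes 72.4% and 97%. A strand that did not pass at 3 days is thus not shown to be unchanged. Between replicates, chi-square per degree of freedom was at least 33.0, so no library was a copy of another. A gene searched for the seed match is not reported here.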

Additional observations from a re-analysis of the deposited data

Results flagged for a closer look

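In the main edgeR fit the effect of MI on miR-221-3p differed between the operation days at 21 days, by 1.57 on the log2 scale (P7 minus P1, adjusted p = 0.0158), with 1.18 at P7 and -0.39 at P1. The call was lost with sequencing lane as a term (1.38, adjusted p = 0.0786). It was also lost without sham P1 replicate 2 (adjusted p = 0.0517) and without MI P1 replicate 1 (adjusted p = 0.0502). Each group carried its own title code.

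Of 28 sets of 4 libraries examined, 2 had a library far from the others, and chance gives about 1 in 20. Both concern miR-221-5p at 3 days and rest on few reads. In MI P7, replicate 3 was lowest with 2 reads, against 4 or 5 in the others, a gap of 0.889 of the range in CPM. In sham P1, replicate 2 was highest with 8 reads, against 0 or 1, a gap of 0.845 of the range.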

How the results depend on the processing

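Of 659 fold changes of single strands under an alternative, 616 kept their side of the threshold, 17 lost the call, 26 gained one, and 0 called values changed sign. The count of called strands for MI at P7 at 3 days (1) became 2 with total count scaling, 2 without the sham P1 libraries of code 1103, 2 without those of code 1078, 0 with no filter and 0 with the title code as a block (correlation 0.642). For MI at P1 at 3 days (0) it became 2 with DESeq2 and 1 without code 1078. For sham age at 3 days (1) it became 2 with DESeq2, and 0 with total count scaling, no filter, the 2 groups alone or the title code block, and leaving out 1 library gave 0 to 2. For MI at P7 at 21 days (2) it became 1 with the 2 groups alone, and leaving out 1 library gave 2 to 3. For the difference at 21 days (1) it became 4 with total count scaling, 3 with no filter, 3 with DESeq2 and 0 with the lane term, and leaving out 1 library gave 0 to 3. The cause was not tested. Total count scaling moved the median of all miRNAs by 0.48 (3 days) and 0.35 (21 days) for MI at P7 and by 0.53 for the difference at 21 days, on the log2 scale, in the direction of the strands' own shift. The size factors of DESeq2 moved it by up to -0.31 at 3 days (difference of effects) and by 0.01 at 21 days.

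Title numbers at 21 days did not pair the libraries: same-numbered libraries correlated at -0.31 to 0.33 (3 of 15 over 0.1). With the number as a replicate block the counts of called strands stayed at 2 for MI at P7, 1 for the difference, and 0 for MI at P1 and sham age. No such numbers exist at 3 days. The 3-day MI P7 and sham P7 libraries, of 1.29 to 3.42 M counts, limit what can be said of the 5p strands.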
